A study of Oryctolagus cuniculus with 12 samples.

Results

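Uterine body tissue of New Zealand White rabbits given cyclosporine A (CsA) was compared with tissue of rabbits given none, averaged over animals that had and had not received lipopolysaccharide. The comparison sets all 12 libraries of the series against each other, 6 with CsA (groups CsA and LPS+CsA) and 6 without (groups Control and LPS), and LPS given or not enters the model as a second term. The groups were CsA (saline infusion and 20 mg/kg of CsA into muscle), LPS+CsA (an infusion of 4 mg/kg of LPS and the same CsA injection), Control (saline infusion, no CsA) and LPS (the LPS infusion, no CsA), with 3 animals and 1 library per animal in each. In all groups estrus and ovulation had been synchronised with eCG and hCG, and the tissue was taken 3 h into treatment. The labels disagree on 3 points that bear on what the CsA term means. The infusion is called intrauterine in one place and intravaginal in another, animals without CsA received either its solvent or saline, and CsA was given with the infusion or 3 h after it, so the time for which the tissue had been exposed to CsA is not fixed by the labels. The labels give no age.

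CsA binds cyclophilins, and the complex blocks calcineurin, the phosphatase that lets NFAT transcription factors enter the nucleus of an activated T cell. It is known for silencing cytokine genes of T cells. LPS is a bacterial outer-membrane lipid that is sensed by TLR4 and switches on NF-kB and interferon responses in epithelium, stroma and resident leukocytes. An average over LPS asks which transcripts differ with CsA in the mean of the differences without and with that inflammatory stimulus. A large difference in either kind of animal can carry it alone.

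Expression was measured as FPKM, a read count scaled to transcript length and library size, so levels below are scaled to transcript length, and differences are log2 differences of FPKM + 1, which understate the change of low genes. Of 17301 genes in the files, 12794 reached 1 FPKM in at least 3 of the 12 libraries and were tested. Each library had 11945 to 12398 genes at 1 FPKM or more. Read totals are not in the files used, so no counting interval is given. LPS 1 and CsA 2 stood apart: their array weights, limma's estimate of each library's precision, were 0.617 and 0.553, against 0.817 to 1.61 in the other 10 libraries. The tissue label could not be set against its markers, because genes such as those of smooth muscle have no symbol in the files and are not analysed here. Symbols come from the authors' comparison tables, which set LPS against Control and LPS+CsA against LPS. Only 255 tested genes had one, and 141 of these had been listed as differing between LPS+CsA and LPS, 6 of the libraries compared here.

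No gene passed the adjusted threshold for CsA averaged over LPS. limma's moderated test with Benjamini-Hochberg adjustment at 0.05 called 0 of 12794 genes (0%), and the smallest adjusted p was 0.373. At an unadjusted p under 0.05 there were 1449 genes (11.3%), against 639.7 expected if no gene differed, of which 935 (7.31%) were higher and 514 (4.02%) lower with CsA. No other fit that was run called a gene either. When LPS 1 and CsA 2 were both left out the count was 787, of which 522 were higher and 265 lower. The lean towards higher values depended on the scaling: with median-of-ratios rescaling 673 genes were higher and 719 lower, and with quantile normalization 696 were higher and 741 lower, while the median difference over all genes was 0.02 in FPKM as deposited and 0.00 after either rescaling.

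**Figure D1:**
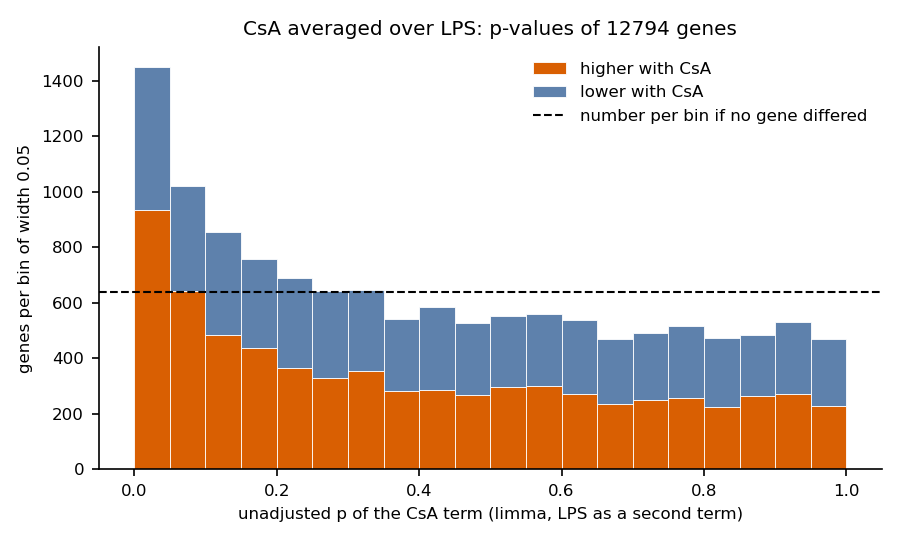
Number of tested genes (vertical axis) per bin of the unadjusted p of the CsA term (horizontal axis), stacked by direction, with a dashed line at the 639.7 genes per bin expected if no gene differed. The lowest bin holds 1449 genes, 935 of them higher and 514 lower with CsA.

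The differences were small. Over all tested genes the median absolute difference was 0.13 and the median standard error 0.13. A difference of at least 1, which is a 2-fold change, was reached by 64 genes by value, and only 17 genes higher (0.133%) and 9 lower (0.0703%) combined it with an unadjusted p under 0.05. Among the 1449 genes the median absolute difference was 0.33, and 381 of them lay under 0.25. In 1444 of the 1449 the sign was the same in saline and in LPS animals, which the choice by a small p for the average favours.

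The 6 libraries with CsA lay entirely above the 6 without for 47 genes (0.367%) and entirely below for 16 (0.125%), 63 genes in all (0.492%). Their absolute differences ran from 0.13 to 0.91 with a median of 0.35. STEAP3 was the only one of the 63 with a symbol, and 3 were loci that the authors assembled. The count was 127 without LPS 1 and CsA 2, where fewer libraries have to be kept apart.

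Genes with a symbol were not a neutral sample of the table. An unadjusted p under 0.05 was found for 50 of the 255 (19.6%), 30 higher and 20 lower. It was found for 46 of the 141 genes listed by the authors in LPS+CsA against LPS (32.6%), and for 4 of the 114 listed in LPS against Control alone (3.51%). Among the 12420 tested genes in no deposited table the share was 11.1%. The genes named below carry a symbol and had the lowest p on the higher and on the lower side, and none of them passed the adjustment. Of these 20, 19 had been listed by the authors in the same direction in LPS+CsA against LPS, so their average is not independent of that choice. The ranking itself used all 12 libraries. The difference in saline animals is given beside most of them, since the LPS+CsA and LPS libraries have no share in it.

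STEAP3, a metalloreductase that reduces iron taken up into endosomes, separated the libraries completely. It had 2.92, 6.72 and 2.64 FPKM in CsA animals and 2.74, 5.11 and 5.25 FPKM in LPS+CsA animals, against 1.78, 2.05 and 2.06 FPKM in Control and 2.10, 1.61 and 1.61 FPKM in LPS animals. Every library with CsA was above every library without. The average difference was 0.81 ± 0.19 (SE, n = 6 libraries each), 1.75-fold on the FPKM + 1 scale, with an adjusted p of 0.373 in limma. The difference was 0.69 ± 0.28 in saline animals and 0.92 in LPS animals. Leaving out 1 library at a time moved the average between 0.67, without CsA 2, and 0.91, without CsA 3.

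PLLP, the MARVEL-domain membrane proteolipid plasmolipin, had a lowest, median and highest value of 4.05, 7.11 and 9.38 FPKM with CsA, against 2.23, 3.15 and 5.79 FPKM without. The groups overlapped, with 4 of the 6 libraries with CsA above the highest library without, which was LPS 2. The average was 0.73 ± 0.19, with 0.58 in saline and 0.88 in LPS animals. KANK4, of a family of adaptors that link integrin adhesions to the cytoskeleton, had 3.30, 6.11 and 9.50 FPKM with CsA, against 1.65, 2.80 and 4.87 FPKM without. Only LPS+CsA 3 lay inside the range of the libraries without CsA. KANK4 had an average of 0.83 ± 0.22, with 0.94 in saline and 0.72 in LPS animals. TMEM139, a transmembrane protein, had 1.81, 3.02 and 4.38 FPKM with CsA, against 0.803, 1.57 and 2.09 FPKM without, an average of 0.68 ± 0.17. CsA 1 was the only library with CsA within the other range, and the difference was 0.37 in saline animals and 1.00 in LPS animals.

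HMGA2, a chromatin protein with AT-hooks, had 1.09, 1.92 and 3.29 FPKM with CsA, against 0.392, 0.864 and 1.30 FPKM without, an average of 0.68 ± 0.19. CsA 3 and LPS+CsA 3 lay inside the range of the libraries without CsA. MYCN, a transcription factor of the MYC family, had 4.80, 11.1 and 15.6 FPKM with CsA, against 2.94, 5.32 and 8.54 FPKM without, an average of 0.73 ± 0.23. Its groups overlapped through CsA 3 and LPS+CsA 1. The differences were 0.66 and 0.57 in saline animals and 0.70 and 0.88 in LPS animals.

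SHMT1, the cytosolic serine hydroxymethyltransferase that feeds 1-carbon metabolism, had 3.92, 5.83 and 10.4 FPKM with CsA, against 2.47, 3.24 and 5.44 FPKM without. Only 3 libraries with CsA exceeded the highest of the others, Control 2, and the average was 0.73 ± 0.22. TRIM14, an adaptor of antiviral signalling, had 4.18, 6.66 and 23.9 FPKM with CsA, against 2.39, 4.37 and 5.98 FPKM without. CsA 2 and CsA 3 stood at 18.6 and 23.9 FPKM, far above all other libraries, and without CsA 3 the average of 0.91 ± 0.32 was 0.70. BCAN, the proteoglycan brevican, averaged 0.63 ± 0.20 at 0.242 to 3.06 FPKM over the 12 libraries, and FAM83F averaged 0.40 ± 0.14 at 0.977 to 2.88 FPKM. The adjusted p of the 10 genes on the higher side ran from 0.373 to 0.382 in limma.

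**Figure D2:**
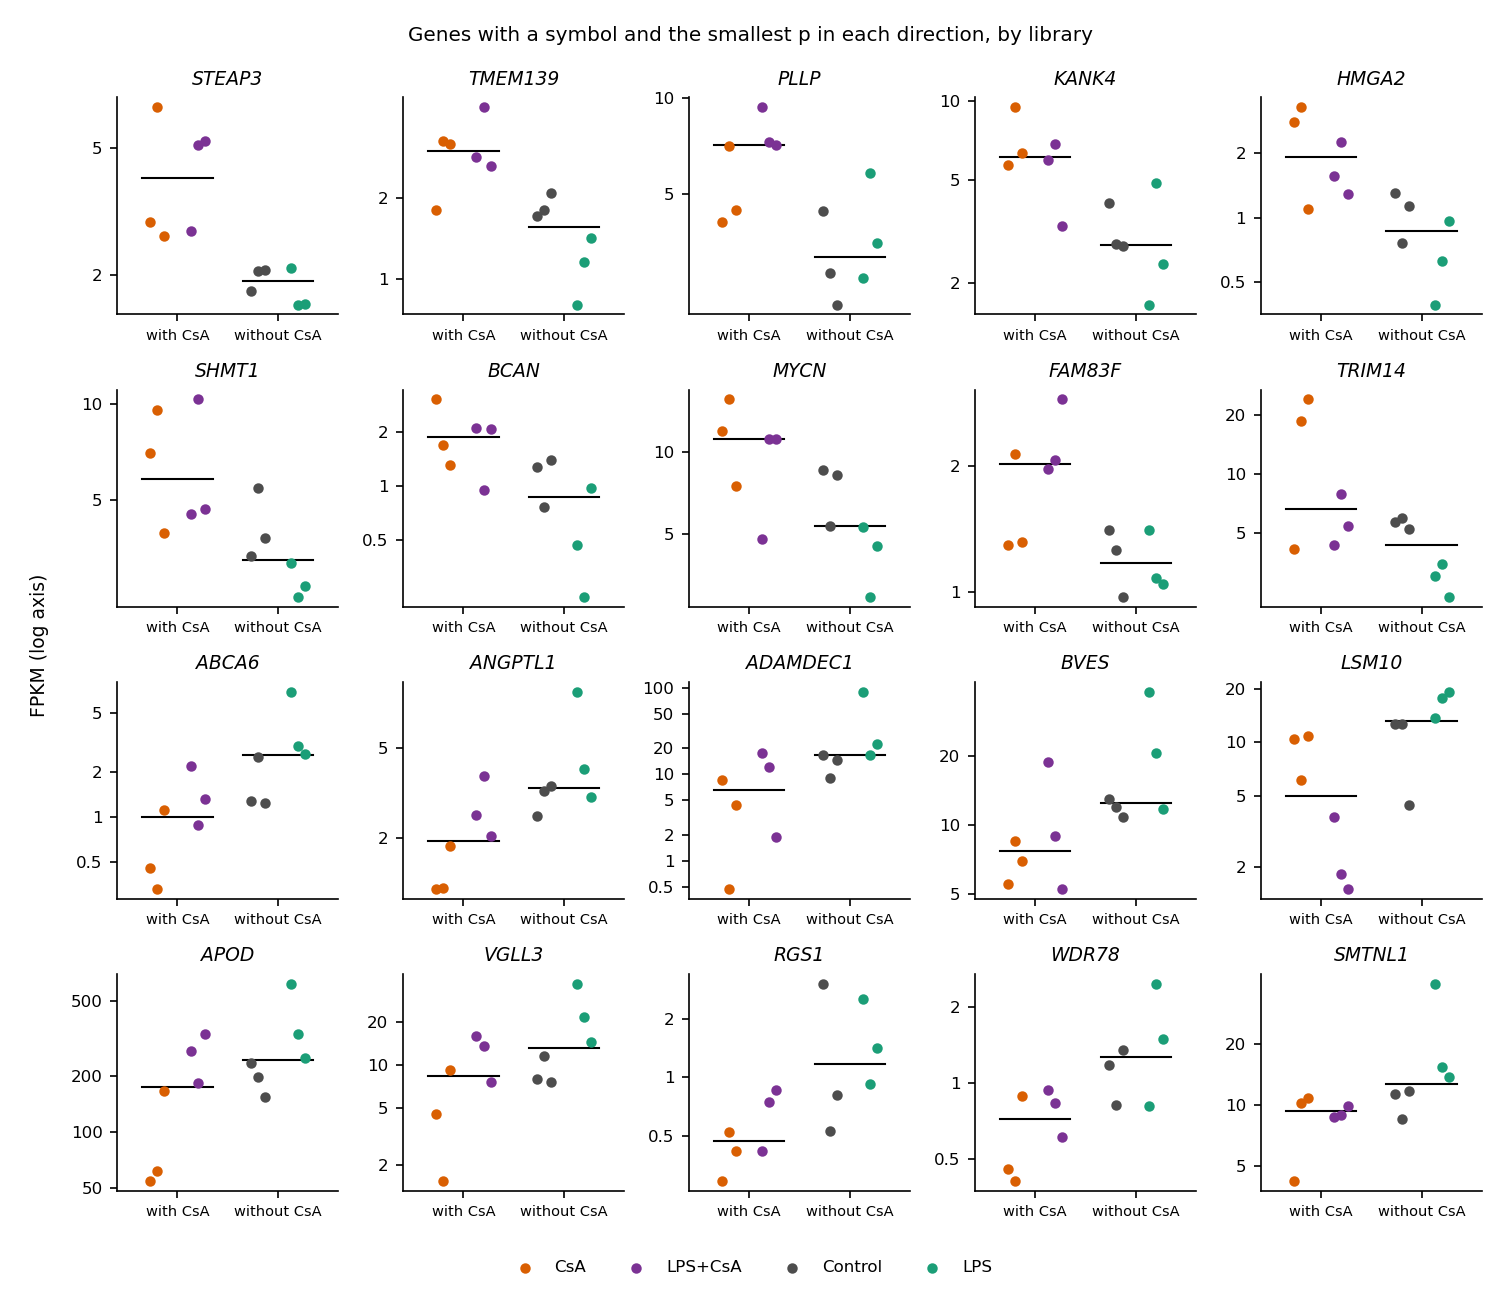
FPKM on a log axis (vertical) in each library for the 10 named genes that were higher with CsA (upper 2 rows) and the 10 that were lower (lower 2 rows), libraries with CsA to the left of those without. Points are libraries coloured by group and bars are the median of 6 libraries. STEAP3 is the gene whose 6 libraries with CsA, at 2.64 to 6.72 FPKM, all lie above the 6 without, at 1.61 to 2.10 FPKM.

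On the lower side, ABCA6, a transporter of the ABCA family of lipid carriers, had 0.457, 0.332 and 1.12 FPKM in CsA animals and 2.19, 0.883 and 1.33 FPKM in LPS+CsA animals, against 1.28, 2.53 and 1.25 FPKM in Control and 6.94, 2.98 and 2.66 FPKM in LPS animals. The groups overlapped, with 4 of 6 libraries with CsA below the lowest without, while within saline and within LPS animals every library with CsA was below every library without. The average was -0.86 ± 0.23, with -0.71 in saline and -1.02 in LPS animals, and the adjusted p was 0.373. Without LPS 1, the highest library, the average was -0.69.

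ADAMDEC1, a metalloproteinase-like protein known from macrophages and mucosal stroma, had the largest average of the 20 genes. Its lowest, median and highest values were 0.472, 6.53 and 17.5 FPKM with CsA, against 8.95, 16.9 and 91.0 FPKM without. CsA 2 was the lowest and LPS 1 the highest library, and 4 libraries with CsA lay below all of those without. The average was -1.83 ± 0.57 (adjusted p 0.376, limma), with -1.73 ± 0.85 in saline animals and -1.93 in LPS animals. It ran from -2.11 to -1.46 when single libraries were left out.

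LSM10, a subunit of the U7 particle that processes histone transcripts, was lowest in LPS+CsA animals. It had 10.5, 6.17 and 10.9 FPKM in CsA animals and 3.81, 1.83 and 1.51 FPKM in LPS+CsA animals, against 12.7, 12.7 and 4.47 FPKM in Control and 13.7, 17.8 and 19.3 FPKM in LPS animals. Only the LPS+CsA libraries lay below all libraries without CsA. The difference was -0.02 ± 0.37 in saline animals and -2.45 in LPS animals, with an average of -1.24 ± 0.43. The test of the difference between the 2 gave an adjusted p of 0.815.

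ANGPTL1, an angiopoietin-like secreted protein, had 1.18, 1.93 and 3.76 FPKM with CsA, against 2.50, 3.31 and 8.88 FPKM without, an average of -0.71 ± 0.20 that became -0.55 without LPS 1. APOD, the lipocalin apolipoprotein D, was the most abundant of the 20, with 54.7, 174 and 334 FPKM with CsA, against 154, 242 and 620 FPKM without, an average of -0.88 ± 0.31. APOD was the only gene of the 20 that the authors had not listed in LPS+CsA against LPS, and its difference was larger in saline animals (-1.21) than in LPS animals (-0.55) by value. VGLL3, a cofactor of TEAD transcription factors, had 1.55, 8.44 and 16.1 FPKM with CsA, against 7.70, 13.1 and 37.2 FPKM without, an average of -0.91 ± 0.32. In APOD and VGLL3 the 2 ranges overlapped widely, with 2 and 3 libraries with CsA below all those without.

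BVES, a Popeye-domain protein that binds cAMP, had 5.28, 7.74 and 19.0 FPKM with CsA, against 10.8, 12.5 and 38.4 FPKM without, an average of -0.87 ± 0.30. LPS+CsA 1 was the only library with CsA that reached the range of the others. SMTNL1, a smoothelin-like regulator of smooth muscle contraction, averaged -0.73 ± 0.28, and without LPS 1, at 39.9 FPKM, this was -0.48. RGS1, which dampens G-protein signalling in lymphocytes, had 0.292, 0.470 and 0.858 FPKM with CsA, against 0.532, 1.17 and 3.05 FPKM without, an average of -0.64 ± 0.24 that was -0.45 without Control 1. WDR78, an axonemal dynein chain, averaged -0.45 ± 0.17. In bulk tissue, fewer cells of a type and less RNA per cell cannot be told apart. The adjusted p of the 10 genes on the lower side ran from 0.373 to 0.397 in limma.

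The next 4 genes are the identifiers of smallest p, on the lower and on the higher side, that have no symbol in any table. ENSOCUG00000007655 had 12.4, 15.6 and 18.6 FPKM with CsA, against 19.8, 24.0 and 29.6 FPKM without, an average of -0.59 ± 0.10 with an unadjusted p of 7.15e-05. ENSOCUG00000012679 averaged -0.77 ± 0.15. On the higher side, ENSOCUG00000016955 had 11.1, 13.2 and 13.8 FPKM with CsA, against 8.46, 9.52 and 10.2 FPKM without, an average of 0.38 ± 0.08. ENSOCUG00000024966 averaged 0.44 ± 0.09. The groups did not overlap for ENSOCUG00000007655 and ENSOCUG00000016955, and the adjusted p was 0.373 for all 4.

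The genes whose pattern was most like that of STEAP3 over the 12 libraries, after the LPS term was taken out, were SLC7A3 (Pearson's r 0.893), NXNL2 (0.889) and MYCN (0.886). SLC7A3, a transporter of cationic amino acids, had 1.47, 2.15 and 8.16 FPKM with CsA, against 0.599, 1.12 and 1.74 FPKM without. For ABCA6 they were MFSD9 (0.900), RIMS3 (0.886) and CHAC1 (0.861). These correlations describe libraries that share the CsA difference, and carry no test. CsA 2 was the highest library for STEAP3, while for ABCA6 LPS 1 was the highest and CsA 2 the lowest.

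The CsA difference was next set side by side in saline and in LPS animals, which share no library. CsA against Control gave 594 genes (4.64%) at an unadjusted p under 0.05 and LPS+CsA against LPS gave 1031 (8.06%), with smallest adjusted p of 0.292 and 0.458. The first count was 374 without Control 3 and 385 without CsA 2, and the second was 661 without LPS 1. The difference between the 2 was tested for each gene as an interaction: limma called 0 genes (0%), 392 (3.06%) had an unadjusted p under 0.05, and the smallest adjusted p was 0.497. Without LPS 1 the interaction called 1 gene, ENSOCUG00000025431, looked up after its values were seen. It had 0.740, 0.943 and 1.30 FPKM in CsA animals and 0.307, 1.34 and 0.515 FPKM in LPS+CsA animals, against 0.577, 0.214 and 0.433 FPKM in Control and 0.729, 221 and 197 FPKM in LPS animals, so it was high in LPS 2 and LPS 3 and near the floor in the other 10 libraries.

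**Figure D3:**
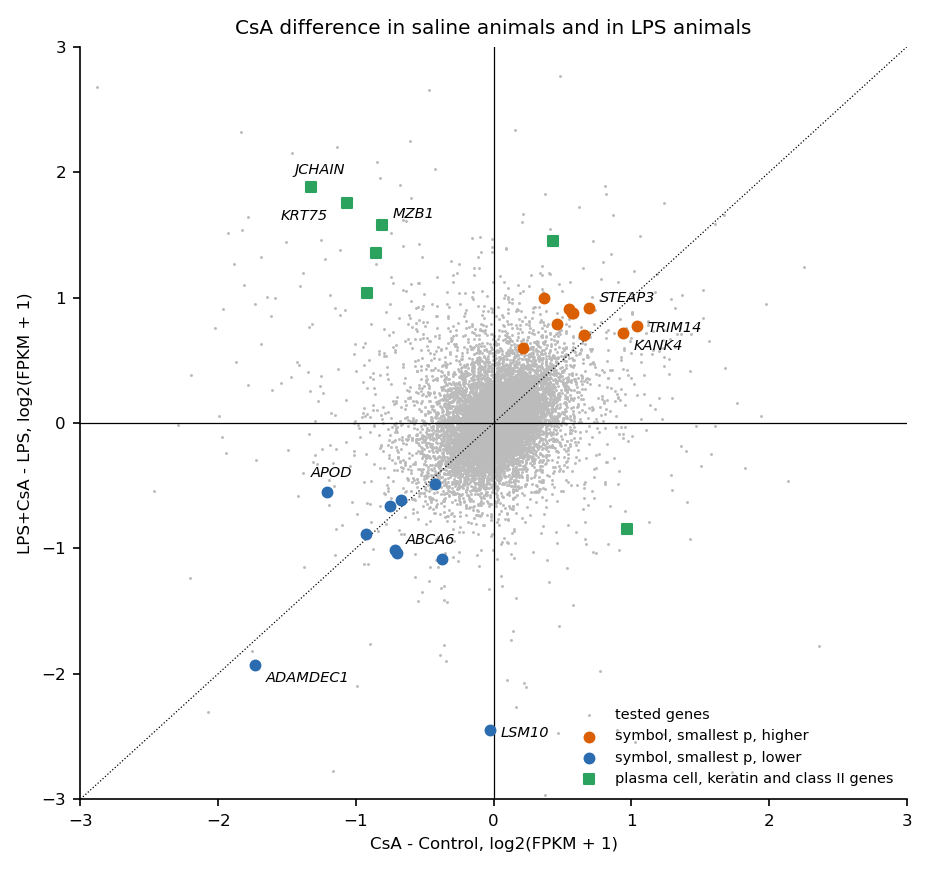
Difference of log2(FPKM + 1) between CsA and Control animals (horizontal axis) and between LPS+CsA and LPS animals (vertical axis) for the tested genes (8 lie outside the axes), with the line of equal differences dotted. Orange and blue points are the 20 named genes of lowest p for the average, and green squares are the plasma cell, keratin and class II genes named in the text, of which JCHAIN lies at -1.33 and 1.89.

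The genes that the authors listed in LPS+CsA against LPS were then followed in the saline animals, whose libraries took no part in that listing. Of the 136 tested genes listed as higher, 73 (53.7%) were also higher by value in CsA than in Control, where 55.1% of all tested genes were, and their median was 0.07, against 0.90 in LPS animals. Of the 63 listed as lower, 41 (65.1%) were lower by value, where 44.9% of all tested genes were, and their median was -0.12, against -0.96 in LPS animals. The shares over all tested genes depended on the scaling. With median-of-ratios rescaling they were 50.2% higher and 49.8% lower, while the listed genes stayed at 53.7% and 65.1%. Without CsA 2 the share of 65.1% was 52.4%. Only 5 of the 136 and 1 of the 63 reached an unadjusted p under 0.05 in the same direction, and 9 of the 136 did in the other. Control libraries had a share in the listing of genes that also stand in LPS against Control. Among the genes outside that table the shares were 56 of 92 (60.9%) for those listed higher and 23 of 33 (69.7%) for those listed lower, and the share of 69.7% was 42.4% without CsA 2.

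Gene groups were described by the tested members that carry a symbol, at most 7 per group, beside a median of 0.02 and 11.3% at an unadjusted p under 0.05 over all genes. By value, 6968 of the 12794 tested genes were higher with CsA on average. Interferon-stimulated genes, which cells switch on against viruses, were higher by value in 7 of 7 members, with a median of 1.04, and 2 had an unadjusted p under 0.05. IRF7, the transcription factor that amplifies the interferon response, had 15.5, 149 and 252 FPKM in CsA animals and 24.3, 37.3 and 20.2 FPKM in LPS+CsA animals, against 20.5, 41.5 and 27.95 FPKM in Control and 10.1, 9.07 and 19.4 FPKM in LPS animals. CsA 2 and CsA 3 were far above all others, while CsA 1 lay below all 3 Control libraries. The average was 1.29 ± 0.54 with an adjusted p of 0.426. OAS2, a sensor of double-stranded RNA, averaged 1.19 ± 0.53 (adjusted p 0.434), and ISG15, the ubiquitin-like interferon product, had 22.3, 212 and 686 FPKM in CsA animals and 27.5 to 45.6 FPKM in LPS+CsA animals, against 24.5, 93.8 and 59.1 FPKM in Control and 12.6 to 29.1 FPKM in LPS animals.

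The same libraries led the other interferon genes. USP18, which removes ISG15 from proteins, averaged 1.04 ± 0.52 and IFIT3, an antiviral effector, 0.79 ± 0.43. Without CsA 3 the average was 0.78 for OAS2, 0.64 for USP18 and 0.47 for IFIT3. The summed level of the 7 genes ran from 78.0 to 1296 FPKM with CsA, highest in CsA 3, against 47.4 to 238 FPKM without. The median of the group was 0.64 without CsA 3, 0.87 without CsA 2 and 1.496 without CsA 1. It was 1.36 in saline and 0.81 in LPS animals. Another 9 entries without a symbol were put together after values were seen, from annotations as interferon-induced proteins, guanylate-binding proteins, an oligoadenylate synthase and a receptor-transporting protein. They were higher by value in 9 of 9 with a median of 0.84, and 3 had an unadjusted p under 0.05. Only 1 of these 3, a guanylate-binding protein, is called interferon-induced in its annotation. All 7 genes with a symbol stand in the authors' tables as lower in LPS than in Control, and 3 as higher with LPS and CsA than with LPS alone. Of the 9 entries, 6 stand as lower in LPS than in Control and 7 as higher with LPS and CsA than with LPS alone. This choice favours higher values in LPS animals, so the counts of 7 of 7 and 9 of 9 are no independent evidence. Several of these gene families have near-identical members between which reads may be divided.

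**Figure D4:**
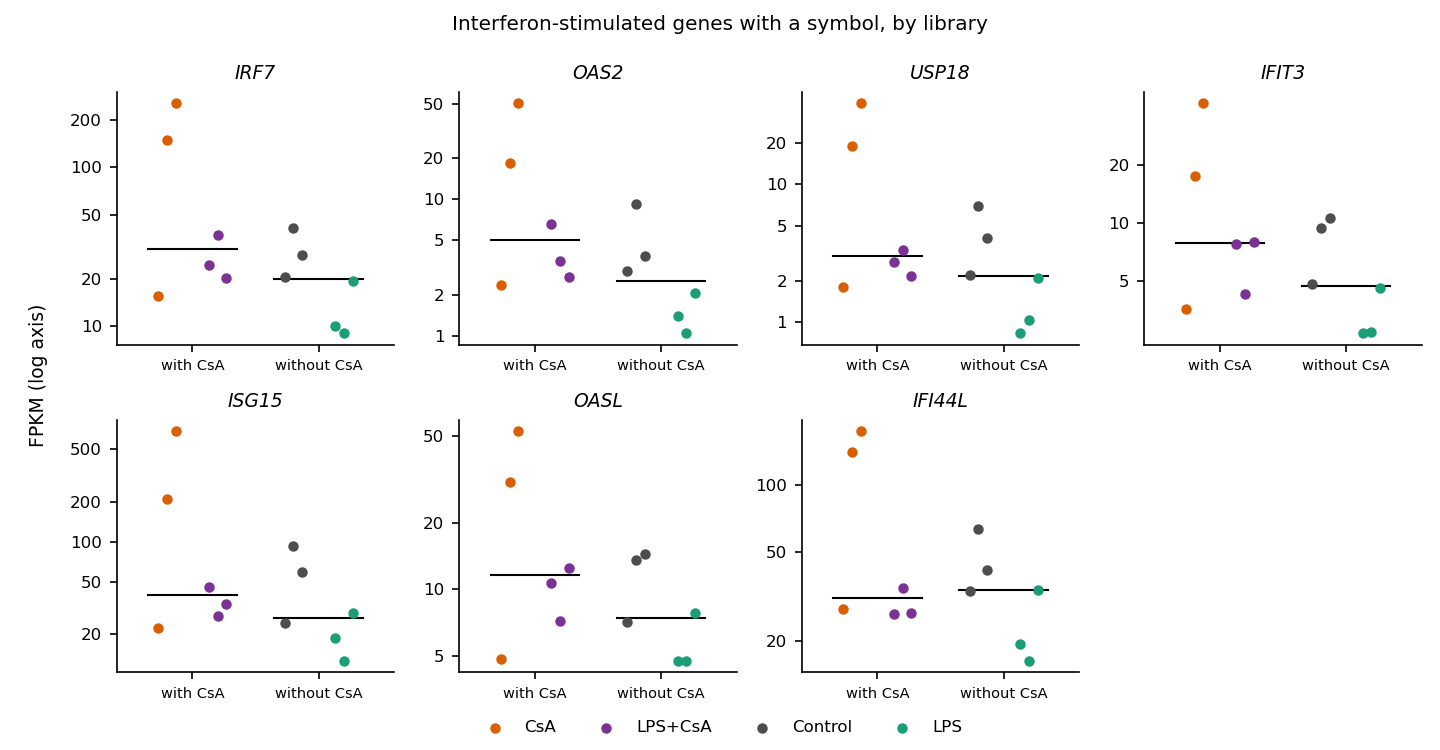
FPKM on a log axis (vertical) of the 7 interferon-stimulated genes with a symbol in each library, libraries with CsA to the left of those without, coloured by group, with the median of 6 libraries as a bar. CsA 2 and CsA 3 are the 2 highest libraries in every panel, at 149 and 252 FPKM for IRF7.

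Chemokines and genes of NF-kB feedback and survival were higher by value on average in 9 of 9 members. The 4 chemokines had a median of 0.56, made of -0.18 in saline and 1.48 in LPS animals. The 5 genes of NF-kB feedback and survival had a median of 0.47, made of -0.25 and 1.04. TNFAIP3, the A20 enzyme that shuts off NF-kB, had 3.39, 4.81 and 2.97 FPKM in CsA animals and 5.68, 5.38 and 12.5 FPKM in LPS+CsA animals, against 3.15, 3.25 and 8.61 FPKM in Control and 2.57, 2.93 and 3.77 FPKM in LPS animals. Its average was 0.39 ± 0.31 (adjusted p 0.647), with 0.17 without LPS+CsA 3 and 0.64 without Control 3. CXCL10, an interferon-induced attractant of T cells, averaged 1.09 ± 0.82 and reached 64.6 FPKM in LPS+CsA 3 and 50.01 FPKM in Control 3, and the average was 0.65 without LPS+CsA 3 and 1.78 without Control 3. TNFAIP3 and CXCL10 differed in sign between saline animals (-0.25 and -0.47) and LPS animals (1.04 and 2.65), and for each the limma test of that difference had an adjusted p of 1.00. The 2 values had the same sign for TNFAIP8, BCL3, CXCL8 and CXCL11, the last 3 at 0.21, 0.10 and 0.11 in saline and 0.73, 0.79 and 1.01 in LPS animals. TNFAIP8, a regulator of cell survival, was the 1 of these 9 with an unadjusted p under 0.05, at 1.04 ± 0.36. All 9 stand as higher in the authors' table of LPS+CsA against LPS. That choice favours higher values in LPS animals, so the count of 9 of 9 is no independent evidence. The NF-kB median was 0.17 and that of the chemokines 0.34 without LPS+CsA 3, and the chemokine median was 1.01 without Control 3.

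The neutrophil genes S100A8, S100A9 and S100A12, which encode calgranulins, had a median of 0.87. All 3 stand as higher in the authors' table of LPS+CsA against LPS, which favours higher values in LPS animals. S100A8 had 62.7, 10.7 and 251 FPKM in CsA animals and 129, 7.90 and 344 FPKM in LPS+CsA animals, against 4.46, 19.1 and 166 FPKM in Control and 34.4, 44.1 and 48.2 FPKM in LPS animals. The spread within each group other than LPS was wider than the difference between groups, and the average was 0.95 ± 1.03 (adjusted p 0.753), with 0.43 without Control 1 and 1.65 without LPS+CsA 2. The group median was 0.42 without CsA 3 and 1.43 without LPS+CsA 2. DMBT1, a mucosal defence protein, had 6.15, 21.9 and 39.0 FPKM with CsA, against 5.31, 9.15 and 22.1 FPKM without, an average of 0.85 ± 0.42.

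For lymphocyte genes the values in saline and LPS animals differed in sign or size. TRAC, which encodes a constant region of the T cell receptor and was the only T cell gene with a symbol, had 3.18, 3.99 and 1.99 FPKM in CsA animals and 5.36, 5.99 and 2.29 FPKM in LPS+CsA animals, against 2.54, 2.59 and 4.06 FPKM in Control and 0.655, 0.948 and 1.13 FPKM in LPS animals. The average was 0.73 ± 0.29 (adjusted p 0.409), with -0.01 in saline and 1.47 in LPS animals. JCHAIN, which joins polymeric immunoglobulins, had 10.2, 38.2 and 17.1 FPKM in CsA animals and 65.7, 99.6 and 56.3 FPKM in LPS+CsA animals, against 31.1, 31.0 and 120 FPKM in Control and 14.7, 21.7 and 20.4 FPKM in LPS animals. JCHAIN averaged 0.28 ± 0.59, with -1.33 in saline and 1.89 in LPS animals. MZB1, a chaperone of antibody assembly, had -0.81 and 1.58. DERL3, a component of protein degradation at the endoplasmic reticulum and the remaining tested plasma cell gene, had 3.33, 5.93 and 9.82 FPKM with CsA, against 0.719, 2.23 and 8.29 FPKM without. It did not cross, with 0.43 in saline and 1.45 in LPS animals, and averaged 0.94 ± 0.37 (adjusted p 0.405). DERL3 stands as higher in the authors' table of LPS+CsA against LPS, which favours a higher value in LPS animals. The 10 immunoglobulin entries without a symbol, grouped after values were seen, had a median of 0.14, which was -0.09 without LPS 1 and 0.67 without Control 3. By value 1 of 10 was higher in saline animals, where 55.1% of all tested genes were, and 10 of 10 in LPS animals, where 52.4% of all tested genes were, with medians of -1.37 and 1.76. Of the 10, the authors' tables hold 8 as higher with LPS and CsA than with LPS alone and 8 as lower with LPS than in Control, so the choice of entries favours these signs and the counts are no independent evidence.

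KRT75 and KRT82, type II keratins, crossed in the same way, at -1.06 and 1.75 for KRT75 and -0.92 and 1.03 for KRT82. So did TUBE1, the centriolar epsilon-tubulin, at -0.86 and 1.27, and RLA-DRB1, a class II antigen-presenting chain, at -0.85 and 1.36. Other genes of antigen presentation did not share this order. CTSE, the protease cathepsin E of the same list, had 0.97 in saline and -0.85 in LPS animals, with an average of 0.06 ± 0.48. The 4 entries without a symbol that are annotated as class I or class II histocompatibility antigens, grouped after values were seen, had a median of -0.12, with 0.35 in saline and -0.73 in LPS animals. Of these 4, 1 was higher and 3 were lower by value with CsA, and 1 of the lower had an unadjusted p under 0.05. That entry, annotated as a DRB1-4-like beta chain, had 1.34, 1.26 and 2.58 FPKM in LPS animals. It had at most 0.117 FPKM in the other libraries, so it passed the filter through LPS animals alone. Of the 4, 3 stand as lower in the authors' table of LPS+CsA against LPS and 3 as higher in that of LPS against Control. Genes of other lists were also lower in saline and higher in LPS animals, among them GREM1 (-0.78 and 0.89), CX3CL1 (-0.82 and 1.96) and HBB2 (-0.61 and 0.84). The genes with a symbol and this order in this paragraph and the one before missed the adjusted threshold in the test of the crossing. The adjusted p was 0.563 for KRT75, 0.792 for KRT82, 0.863 for TUBE1, 0.914 for JCHAIN and 1.00 for MZB1, RLA-DRB1 and TRAC in limma. These 7 genes all stand as higher in the authors' table of LPS+CsA against LPS, and all but KRT82 as lower in that of LPS against Control, so low LPS and high Control values had a part in their being named. CTSE stands the other way in both tables, as do most of the 4 histocompatibility entries in each. The listing thus favours either order, and the contrast between them is no independent evidence.

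**Figure D5:**
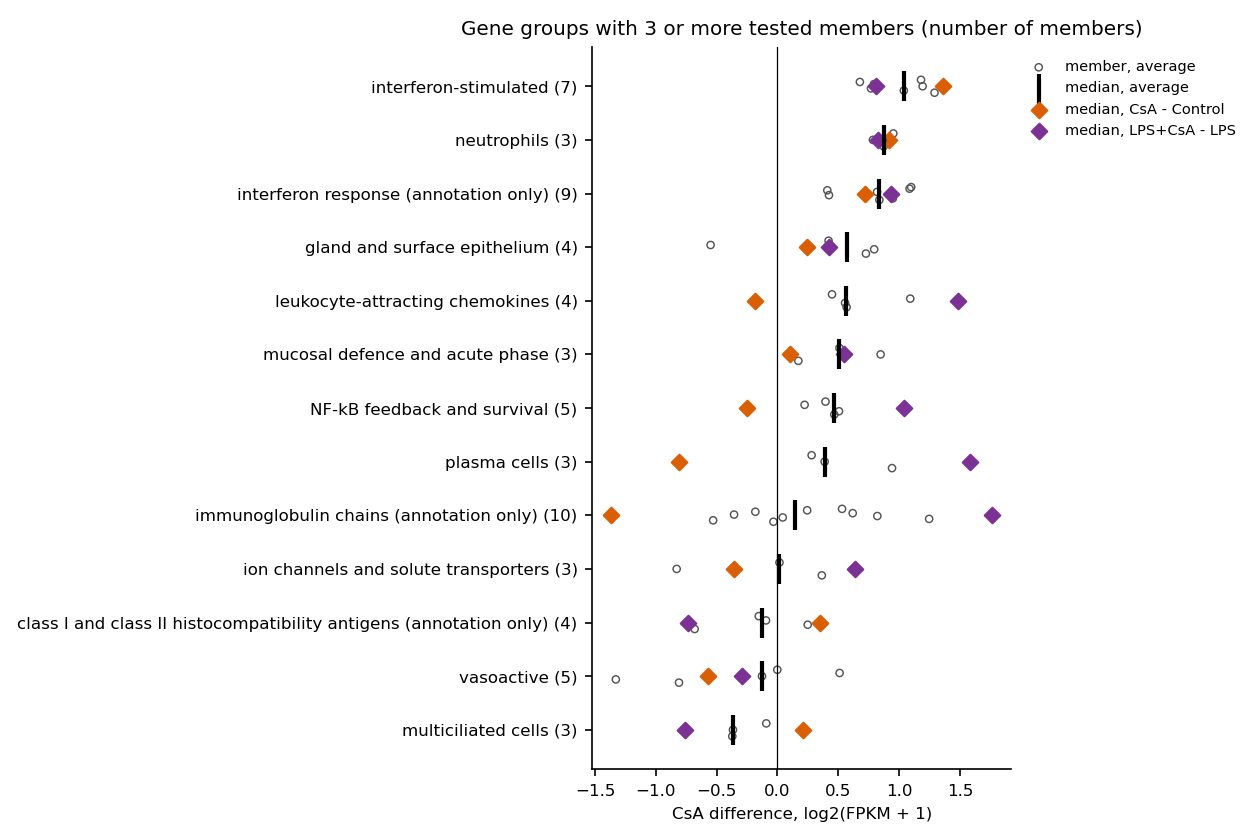
Difference of log2(FPKM + 1) with CsA against without (horizontal axis) for the gene groups with 3 or more tested members. Circles are members and black bars their median for the average, orange diamonds the median in saline animals (CsA - Control) and purple diamonds that in LPS animals (LPS+CsA - LPS). The interferon-stimulated group has medians of 1.36 and 0.81, and the immunoglobulin chains -1.37 and 1.76.

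Most of the metabolic and vascular genes named here were lower by value. PDK4, a kinase that restrains pyruvate dehydrogenase, and KLF15, a transcription factor, both induced by glucocorticoids, were the 2 tested members of that list. PDK4 had 0.527, 3.22 and 5.16 FPKM with CsA, against 1.95, 5.602 and 10.5 FPKM without, an average of -0.80 ± 0.33 (adjusted p 0.422). All 6 libraries with CsA were below the median of the others. KLF15 had 7.97, 17.8 and 41.4 FPKM with CsA, against 11.7, 33.7 and 81.8 FPKM without, an average of -0.90 ± 0.40 (adjusted p 0.433) that was -0.56 without LPS+CsA 3. EDN2, the vasoconstrictor endothelin 2, had 0.674, 3.39 and 16.0 FPKM with CsA, against 2.76, 6.74 and 47.4 FPKM without, an average of -1.33 ± 0.59 (adjusted p 0.433) that was -0.88 without LPS+CsA 3. PTGIS, prostacyclin synthase, averaged -0.81 ± 0.39. In saline and LPS animals the differences were -0.46 and -1.15 for PDK4 and -0.57 and -1.23 for KLF15. They were -0.89 and -1.76 for EDN2 and -0.57 and -1.05 for PTGIS. PDK4, KLF15, EDN2 and PTGIS stand in the authors' tables as higher in LPS than in Control. PDK4 and EDN2 also stand as lower with LPS and CsA than with LPS alone. High LPS values thus had a part in their being named and favour lower values in LPS animals. The receptor AGTR1 was higher by value at 0.51 ± 0.38, or 0.26 without CsA 1. The vasoactive group of 5 had a median of -0.13, which was -0.53 without LPS+CsA 3 and 0.23 without CsA 2.

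Epithelial genes were mixed. WNT11, a secreted WNT ligand, had 0.918, 1.11 and 1.72 FPKM with CsA, against 0.621, 2.37 and 3.66 FPKM without, an average of -0.55 ± 0.22, with -0.09 in saline and -1.01 in LPS animals. SOX9, a transcription factor of glands, averaged 0.42 ± 0.22, and MAL, another MARVEL-domain proteolipid, 0.79 ± 0.47, with 1.61 in saline and -0.02 in LPS animals. Without CsA 3 the average of MAL was 0.48. The 3 genes of multiciliated cells, FOXJ1, CDC20B and C20orf85, had a median of -0.37 and were high in LPS 2, without which it was 0.08. Their median was 0.21 in saline and -0.76 in LPS animals. FOXJ1, CDC20B and MAL stand as higher in LPS than in Control in the authors' tables. With LPS and CsA against LPS alone, CDC20B, C20orf85 and WNT11 stand as lower and SOX9 as higher. These listings favour the signs seen in LPS animals. HBB2, a haemoglobin chain that marks red blood cells, averaged 0.12 ± 0.31, with -0.61 in saline and 0.84 in LPS animals. ALAS2, which makes their haem, averaged -0.16 ± 0.26, with -0.78 in saline and 0.45 in LPS animals. HBB2 and ALAS2 stand as lower in LPS than in Control in the authors' tables, which favours this order. Their summed level ran from 120 to 339 FPKM with CsA, against 110 to 380 FPKM without.

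Of the drug's own machinery, PPIA, which encodes cyclophilin A, was the only gene with a symbol. It had 0.132, 23.5 and 0.113 FPKM in CsA animals and 10.8, 11.3 and 0.142 FPKM in LPS+CsA animals, was listed at 0 in Control 1 with 13.0 and 0.359 FPKM in the other Control animals, and had 20.9, 25.0 and 22.5 FPKM in LPS animals. Libraries of the same group were either near the floor or above 10 FPKM, and the average of -0.94 ± 0.98 had an adjusted p of 0.742. It was -1.73 without CsA 2 and -0.30 without LPS+CsA 3. PPIA has many near-identical copies in mammalian genomes, so this entry is uncertain. The 24 calcineurin, NFAT and T cell target genes of the list had no symbol and are not analysed here.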

How the data were processed

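RNA of the uterine body was sequenced from 12 rabbits. Per the submitters' processing notes the tools were TopHat2, Cufflinks and Cuffnorm, and the authors deposited FPKM values per library. Of the versions, genome build and strand setting the labels say nothing. The deposited comparison tables give log2 fold changes, p-values and read counts of listed genes, per the file headers, and served for symbols, annotation and direction of listing. They pair 302 of 437 identifiers with a symbol, and 0 identifiers matched the RefSeq table, so no sequence is shown.

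Genes with FPKM of 1 or more in at least 3 of 12 libraries were fitted as log2(FPKM + 1) with limma 3.58.1 in R 4.3.3 (CsA and LPS as terms, variance trend, two-sided, Benjamini-Hochberg over all tested genes). A mean per group served for saline and LPS animals and for the interaction. Errors are limma's standard errors. The script was tested on simulated data. Python 3.11.15, pandas 2.3.3, numpy 2.4.6 and matplotlib 3.10.9 were also used.

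Groups follow the titles. Named were the 10 symbol-bearing genes of lowest p per direction, 2 identifiers without one per direction, up to 4 members per gene list by smallest p, PPIA and TRAC, and the 3 genes most correlated with the first gene of each direction. ISG15 was named after its values were seen. The comparison, lists and members were chosen with earlier results of these data known. Of 24 lists, 4 (calcineurin and NFAT, B cells, smooth muscle, endoplasmic reticulum stress) had no tested member with a symbol. As alternatives the scaling was changed (median-of-ratios or quantile normalization), the pseudocount (0.1), the filter (none, or a mean of 5 FPKM), the model (a mean per group, no LPS term, no variance trend, array weights, a replicate block) and the libraries (each left out in turn). A robust variance prior and leaving out LPS 1 and CsA 2 together were added after seeing the data.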

Additional observations from a re-analysis of the deposited data

Results flagged for a closer look

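Of 154 sets of 6 libraries (77 named genes, with and without CsA), 14 had a highest or lowest library far from the rest by Dixon's criterion, which flags about 1 set in 20 by chance. LPS 1 was high without CsA for ANGPTL1 (8.88 FPKM), SMTNL1 (39.9 FPKM), RIMS3 (9.54 FPKM) and GYG1 (94.7 FPKM). Control 3 was high for TNFAIP3 (8.61 FPKM), CXCL8 (4.90 FPKM), CX3CL1 (39.8 FPKM) and JCHAIN (120.4 FPKM) and low for LSM10 (4.47 FPKM), and Control 1 was high for AGTR1 (8.55 FPKM). With CsA, LPS+CsA 3 was high for BCL3 (64.6 FPKM) and BIRC3 (78.8 FPKM), CsA 1 low for SMTNL1 (4.19 FPKM) and CsA 2 low for MEDAG (10.2 FPKM). The part of single animals in these values was not tested.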

How the results depend on the processing

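The count of 0 genes for the average held in every alternative and in leaving out each library, with the smallest adjusted p between 0.181 and 0.782. The 20 genes named by smallest p kept their direction in all 470 refits, with adjusted p between 0.203 and 0.783. Leaving out LPS 1 and CsA 2 together gave 787 genes at an unadjusted p under 0.05, 127 without overlap, 1 gene for the interaction and 42.4% for the authors' lower genes outside LPS against Control. Leaving out single libraries moved the genes at an unadjusted p under 0.05 between 1053 and 1640 for the average, 374 and 862 in saline and 661 and 1174 in LPS animals, the interaction between 0 and 1, and that share between 42.4% and 72.7%. The labels do not pair animals by replicate number. Deviations from the group means correlated above 0.1 in 8 of 18 pairs of same-numbered libraries from different groups. Their median r was 0.09, against -0.06 in pairs of different number. The pairs of replicate 3 were all above 0.1, from 0.19 to 0.28. With a replicate block the counts at an unadjusted p under 0.05 were 1680 for the average, 801 in saline and 1190 in LPS animals, with 0 genes called.

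Of 1812 values of named genes under alternatives, 40 changed sign, in 15 genes. FOXJ1 was 0.25 at a pseudocount of 0.1. SLC5A12 was -0.0025 with median-of-ratios rescaling and -0.0057 with quantile normalization, and CTSE -0.10 with array weights. Without LPS 1 and CsA 2, MEDAG was 0.018, TUBE1 -0.036, JCHAIN -0.045, AGTR2 0.040 and CTSE -0.26. With single libraries left out, the ranges were -0.53 to 0.42 for AGTR2, -0.32 to 0.026 for ALAS2, -0.71 to 0.084 for C20orf85, -0.61 to 0.053 for CDC20B, -0.040 to 0.37 for CHI3L1, -0.37 to 0.32 for CTSE, -0.38 to 0.29 for FOXJ1, -0.15 to 0.34 for GREM1, -0.11 to 0.32 for HBB2, -0.0017 to 0.74 for JCHAIN, -0.14 to 0.25 for KRT82, -0.022 to 0.51 for RLA-DRB1 and -0.29 to 0.22 for SLC5A12. The cause was not tested.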

Other observations

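Some genes differed widely between animals. Of the 12794 tested genes, 55 had a highest library at least 32 times the lowest on the FPKM + 1 scale, and 4 of these (7.27%) had an unadjusted p under 0.05 for CsA, against 11.3% of all tested genes. Of the 55, the 4 with a symbol were ADAMDEC1, ISG15, S100A8 and S100A12.

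The 2 entries annotated as metallothioneins, small metal-binding proteins, were grouped after values were seen and were highest in LPS 1 and LPS 2. Both stand in the authors' tables as higher in LPS than in Control and as lower with LPS and CsA than with LPS alone. High LPS values thus had a part in their being found. The one annotated as metallothionein-2A had 4.96, 21.6 and 50.3 FPKM in CsA animals and 54.7, 69.4 and 24.8 FPKM in LPS+CsA animals, against 18.8, 52.6 and 12.8 FPKM in Control and 471, 155 and 53.0 FPKM in LPS animals. Its average over LPS was -1.06 ± 0.64, with an adjusted p of 0.544 in limma. The difference was -0.36 in saline and -1.77 in LPS animals. The entry annotated as metallothionein-1A averaged -0.62, with 0.06 in saline and -1.30 in LPS animals.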
